A study of Mus musculus with 6 samples.

Results

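Most ZnT proteins, encoded by the Slc30 genes, move zinc out of the cytosol, either across the plasma membrane or into the Golgi, secretory vesicles and endosomes. They work against the ZIP importers of the Slc39 family, and metallothioneins bind the zinc in between. In the mouse, the zinc-sensing transcription factor MTF1 turns on Slc30a1 and the metallothionein genes together when cytosolic zinc rises. The 10 genes Slc30a1 to Slc30a10 were taken by symbol from tables of 56748 gene IDs. All 10 were found, and 7 had enough counts to be tested.

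Each library was made from RNA of a pregnant mouse uterus, collected on day 4 at 1600 h. The mutant group, Zip10 cKO (genotype label Zip10 conditional knockout, uterine-specific per the series design), and the control group (genotype label WT) held 3 libraries each, 6 in all. Zip10 is the plasma membrane zinc importer encoded by Slc39a10. The sources used here do not give the allele, the Cre driver, the strain, the age or whether a library is 1 animal, so a p-value here speaks of the spread among the libraries, which may be technical. The series design speaks of endometrium while the labels say uterus, and the libraries held smooth muscle RNA as well as epithelial and stromal RNA.

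Total counts ranged from 19643069 to 22809574 per library. The targeted gene, Slc39a10, was at 10.13, 17.43 and 20.39 TPM in the libraries labelled Zip10 cKO 1, 2 and 3, against 12.28, 17.32 and 16.01 TPM in controls 1, 2 and 3. TPM, in which all transcripts of a library share 1 fixed total, is a level per base of transcript, so it can be compared between genes. The gene total also counts reads from exons that a conditional allele leaves in place, so it does not check the labels, and every direction given here is that of the libraries labelled Zip10 cKO. Zip10 cKO library 1 stood apart from the other 5 libraries in multidimensional scaling (first coordinate -1.58 against -0.018 to 0.77) and had the lowest share of mitochondrial counts (3.43% against 4.50% to 4.84%). Uterine markers were present in every library, among them Hoxa10, with a summed level of 511 to 601 TPM over 6 markers in Zip10 cKO libraries and of 559 to 611 TPM in controls. Fold changes were above 1 for 6 of 6 lymphocyte, 5 of 5 red blood cell and 2 of 3 tested ovary and oviduct markers. For 5 of 6 uterine and 6 of 6 endothelial markers they were below 1. No marker passed the test, where 0% of all genes did. The edgeR unadjusted p was below 0.05 for 1 uterine, 2 lymphocyte, 0 red blood cell, 1 ovary and oviduct and 1 endothelial marker. The same held for 3 of 10 epithelial and 3 of 5 macrophage markers and 6.46% of all genes. In CPM (scaled counts), 3 lymphocyte, 1 macrophage and 1 ovary and oviduct marker were higher without overlap, as were 6.93% of genes. Lower without overlap were 2 uterine, 1 epithelial and 1 endothelial marker, and 5.78% of genes.

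The upstream 250 bases of 2 members are shown because they hold the letters of elements that respond to zinc in other studies. Slc30a1 is the member that varied most among the well-expressed ones, and Slc30a5 the one with the highest level. Capitals mark matches to the core of the metal response element, to which MTF1 binds (TGCACNC or TGCGCNC, both strands searched), and in Slc30a5 also the palindrome CACTCCC with GGGAGTG, named the zinc transcriptional regulatory element in human cells, where it lies in the SLC30A5 promoter. Both sequences are from RefSeq on GRCm38.p6, an older build than the one used for the counts, and read 5′ to 3′ on the strand of the gene up to its start.
Slc30a1, chr1:191906531-191906780, plus strand: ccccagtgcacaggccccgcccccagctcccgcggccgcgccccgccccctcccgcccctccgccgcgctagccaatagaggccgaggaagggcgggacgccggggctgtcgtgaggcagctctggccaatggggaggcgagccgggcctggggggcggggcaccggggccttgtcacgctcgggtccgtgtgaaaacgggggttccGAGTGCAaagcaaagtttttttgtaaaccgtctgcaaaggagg
Slc30a5, chr13:100833428-100833677, minus strand: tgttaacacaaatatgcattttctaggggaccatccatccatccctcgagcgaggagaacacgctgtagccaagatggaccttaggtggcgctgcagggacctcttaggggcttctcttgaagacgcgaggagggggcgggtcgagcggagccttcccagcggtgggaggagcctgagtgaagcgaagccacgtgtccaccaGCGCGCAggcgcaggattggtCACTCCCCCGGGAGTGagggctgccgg

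A promoter window of 300 bases (250 before and 50 after a start) was matched for 9 of the 10 members, with Slc30a8 unmatched, and for 10 windows in all, since Slc30a3 has 2. Of those windows 6 held at least 1 metal response core, as did 25.7% of all 32841 windows of this length. Slc30a1 had matches starting at base -43 and base 31 counted from the start, Slc30a4 and Slc30a10 had 3 matches each, of which 2 in Slc30a10 overlapped, and Slc30a6, Slc30a7 and Slc30a9 had 0. The palindrome, with at most 10 bases between its arms, was found in 2 of 32841 windows (0.00609%), those of Slc30a5 and Mcmbp. That gap was set after the Slc30a5 sequence was seen, so the match there was known in advance. GC content of the member windows ran from 53.3% to 81.7%, where the median of all windows was 52.7%, and the highest was that of Slc30a4. A match describes the letters only, and no binding was measured.

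The first question was which exporters the day 4 uterus expresses. Nearly all of the family's RNA came from 6 members, in the order Slc30a5, Slc30a9, Slc30a7, Slc30a4, Slc30a6 and Slc30a1, and 4 members were at or near 0. Mean levels over the 6 libraries were 48.4 TPM for Slc30a5, 28.8 TPM for Slc30a9, 19.4 TPM for Slc30a7, 18.1 TPM for Slc30a4, 17.4 TPM for Slc30a6 and 9.22 TPM for Slc30a1. Slc30a5 was above every other member in all 6 libraries, with a mean level above that of 84.1% of the 16737 genes tested, and Slc30a9 was second in all 6. The next 3 were not separated: Slc30a7 exceeded Slc30a4 in 5 of 6 libraries and Slc30a4 exceeded Slc30a6 in 4 of 6, with overlapping ranges. Slc30a1 lay below these in all 6 libraries, with a mean level above that of 44.2% of tested genes.

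**Figure D1:**
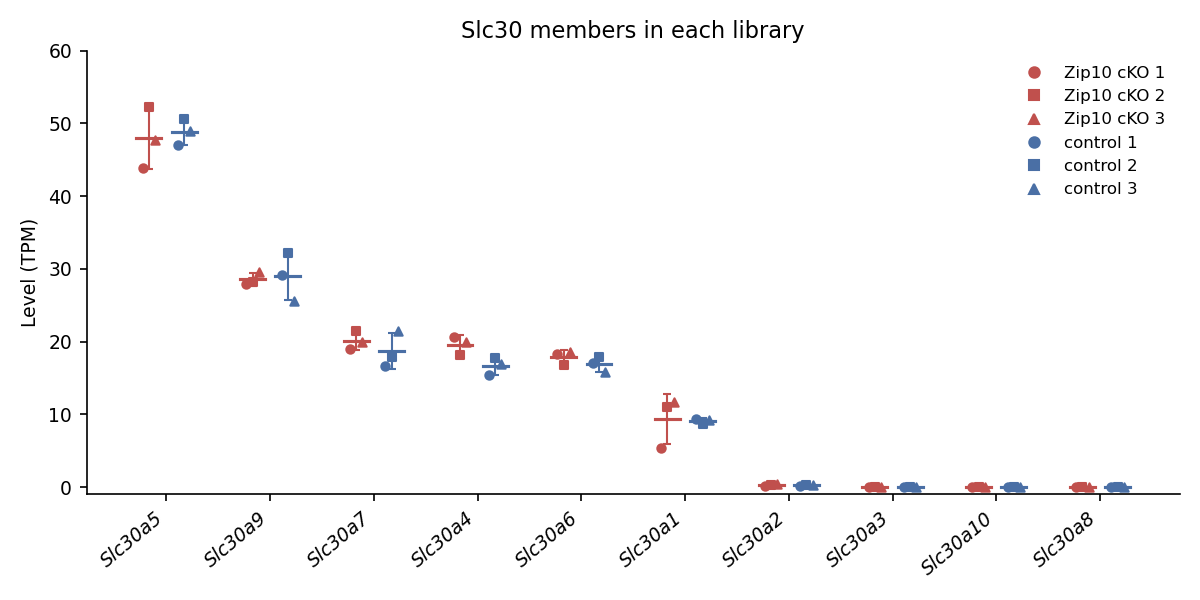
Level (TPM) of each of the 10 Slc30 members in the 3 Zip10 cKO libraries (red, left of each pair) and the 3 control libraries (blue, right). Symbols are libraries, horizontal lines are means and vertical bars are SD (n = 3). Slc30a5 lies between 43.9 and 52.3 TPM in all 6 libraries, and Slc30a1 of Zip10 cKO library 1 (5.38 TPM) lies below the other 5.

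Between the groups, none of the 7 tested members passed the test for a change. In edgeR's quasi-likelihood test with Benjamini-Hochberg adjustment over all genes, 0 of the 7 passed an adjusted p of 0.05, where 0% of the 16737 genes did. None had an unadjusted p below 0.05 in that test either, where 6.46% of all genes did (4.48% higher and 1.98% lower in Zip10 cKO libraries), nor in DESeq2 (4.15% of its genes) or limma-voom (6.42%). After adjustment, limma-voom called 0 members and 0% of genes, DESeq2 0 members and 0.186% of genes, and edgeR's likelihood ratio test 0 members and 0.179%. The quasi-likelihood test called 0 members and 0.0518% of genes with no filter on low counts, and 0 members and 0.0117% without Zip10 cKO library 1. The family's summed level was 135, 148 and 148 TPM in Zip10 cKO libraries 1, 2 and 3, against 135, 145 and 138 TPM in controls 1, 2 and 3, and the groups overlapped (exact two-sided permutation p = 0.4, where 3 against 3 libraries cannot go below 0.1). Fold changes of 3 members were above and of 4 below 1, with a median log2 fold change of -0.018 beside -0.0024 over all genes tested. Missing the threshold does not show that the groups were alike, so the 95% interval of each difference is given with it. In whole uterus RNA, fewer cells of a type and less RNA per cell cannot be told apart.

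**Figure D2:**
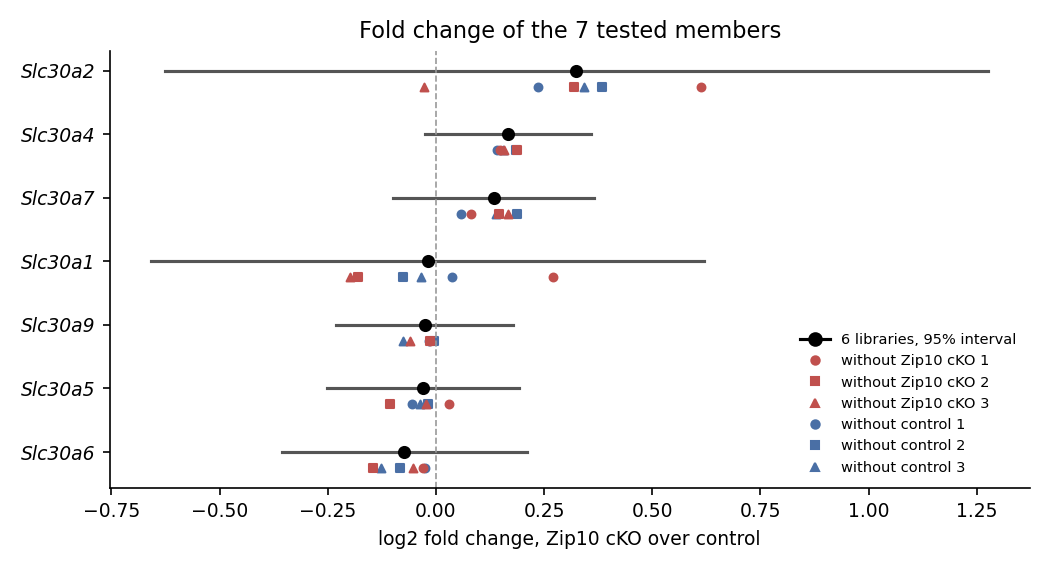
Log2 fold change of Zip10 cKO over control for the 7 tested members from edgeR's quasi-likelihood fit. Black points are the 6-library estimates with 95% intervals, and coloured symbols below them are the estimates with 1 library left out. Every interval crosses 0, and Slc30a1 moves to 0.27 without Zip10 cKO library 1.

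Of the plasma membrane exporters, Slc30a1 encodes ZnT1, the exporter that carries zinc out of the cell and is needed for early mouse development. Its level was 5.38, 11.01 and 11.70 TPM in Zip10 cKO libraries 1, 2 and 3, against 9.37, 8.67 and 9.21 TPM in controls 1, 2 and 3. The controls were close together, while the Zip10 cKO libraries fell on both sides of them, with library 1 below and libraries 2 and 3 above every control. The means were 9.36 ± 3.47 TPM in Zip10 cKO libraries and 9.08 ± 0.367 TPM in controls (SD, n = 3 each). The log2 fold change from the counts was -0.02 ± 0.28 (SE), with a 95% interval from -0.66 to 0.62 (edgeR adjusted p = 0.993). That interval was wider than for any other tested member except Slc30a2. The log2 fold change of Slc30a1 was -0.11 in limma-voom and -0.14 once the libraries' trend on gene length was removed. Without Zip10 cKO library 1 the log2 fold change was 0.27 ± 0.12, with an interval from -0.0030 to 0.54 (edgeR unadjusted p = 0.0521, adjusted p = 0.989).

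Zip10 cKO library 1 held 421 expected counts of Slc30a1 at a total depth of 21332846, and the other 5 libraries 679 to 947. The same library had the lowest summed level of 10 epithelial markers (699 TPM, against 859 to 1189 TPM in controls) and the highest of 5 macrophage markers (131 TPM, against 45.2 to 61.8 TPM in controls). Of the epithelial markers 1 had a fold change above and 9 below 1, all 5 macrophage markers were above 1, none of either list was at 0, and the part of these in the value was not tested. The antisense gene 1700034H15Rik overlaps Slc30a1 in the GENCODE M21 annotation, and the sources used here give no strand setting for the counting, so reads of the 2 genes cannot be told apart with certainty. The antisense gene was assigned 9.18 to 19.5 expected counts in Zip10 cKO libraries and 6.09 to 20.3 in controls.

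Slc30a10 encodes ZnT10, a manganese exporter of the cell surface. It had 0 counts in all 6 libraries, which allows up to 0.132 to 0.153 CPM (counts scaled to a common library total) per library, taking 3 counts as the limit that a count of 0 allows. This limit covers counting error only. Of 6 other genes of manganese transport, all tested, 3 had a fold change above and 3 below 1 and 0 passed the test, with a median log2 fold change of 0.055, which was -0.034 without control 3 and 0.0039 once the libraries' trend on gene length was removed. The Golgi manganese transporter Tmem165 was at 85.3 ± 4.35 TPM in Zip10 cKO libraries and 89.3 ± 3.57 TPM in controls, the importer Slc39a14 at 54.9 ± 1.59 TPM in Zip10 cKO libraries and 43.3 ± 13.8 TPM in controls, and the Golgi calcium and manganese pump Atp2c1 at 27.6 ± 1.14 TPM in Zip10 cKO libraries and 30.7 ± 5.99 TPM in controls (SD, n = 3 each).

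The early secretory members load zinc into the endoplasmic reticulum and Golgi. ZnT5 and ZnT6 act as a heterodimer in which ZnT6 does not itself carry zinc, ZnT7 acts as a homodimer, and enzymes such as alkaline phosphatases receive their zinc through both. Together Slc30a5, Slc30a6 and Slc30a7 made up 81.2, 90.6 and 86.2 TPM in Zip10 cKO libraries 1, 2 and 3, against 80.7, 86.3 and 86.2 TPM in controls 1, 2 and 3, a difference smaller than the spread within either group (exact permutation p = 0.6).

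Slc30a5 was at 43.92, 52.26 and 47.70 TPM in Zip10 cKO libraries 1, 2 and 3, against 46.98, 50.55 and 48.93 TPM in controls 1, 2 and 3. The Zip10 cKO values spanned the controls on both sides. Its log2 fold change was -0.03 ± 0.10, and the 95% interval from 0.84-fold to 1.14-fold was among the narrowest of the family (edgeR adjusted p = 0.955). Counts per library ran from 1684 to 2091.

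Slc30a6 was at 18.28, 16.85 and 18.57 TPM in Zip10 cKO libraries 1, 2 and 3, against 17.03, 17.83 and 15.83 TPM in controls 1, 2 and 3, and the groups overlapped. Its log2 fold change from the counts was -0.07 ± 0.12, an interval from 0.78-fold to 1.16-fold (edgeR adjusted p = 0.904), whereas on the scale of log2(TPM + 1) limma gave 0.08 (adjusted p = 0.883). The sign thus differed between counts and TPM, neither scale called a change, and the median log2 fold change of all genes on the TPM scale was 0.05.

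Slc30a7 was at 19.02, 21.47 and 19.98 TPM in Zip10 cKO libraries 1, 2 and 3, against 16.72, 17.95 and 21.43 TPM in controls 1, 2 and 3. Control 3 lay inside the Zip10 cKO range, and controls 1 and 2 below it. The log2 fold change was 0.13 ± 0.10, with an interval from 0.93-fold to 1.29-fold (edgeR adjusted p = 0.785). It was 0.06 without control 1 and 0.04 once the libraries' trend on gene length was removed.

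Within a library, the partner ratio of Slc30a5 to Slc30a6 was 2.40, 3.10 and 2.57 in Zip10 cKO libraries 1, 2 and 3, and 2.76, 2.83 and 3.09 in controls 1, 2 and 3. Slc30a5 thus exceeded its partner in every library, and the groups overlapped. On the log2 scale the ratio averaged 1.42 ± 0.19 in Zip10 cKO libraries and 1.53 ± 0.09 in controls (SD, n = 3 each; exact permutation p = 0.5, adjusted over 4 ratios p = 0.5). The ratio of Slc30a5 to Slc30a7 was 2.31, 2.43 and 2.39 in Zip10 cKO libraries 1, 2 and 3, and 2.81, 2.82 and 2.28 in controls 1, 2 and 3. Controls 1 and 2 lay above all Zip10 cKO libraries and control 3 below them, so the groups overlapped here too (exact permutation p = 0.4, adjusted p = 0.5).

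**Figure D3:**
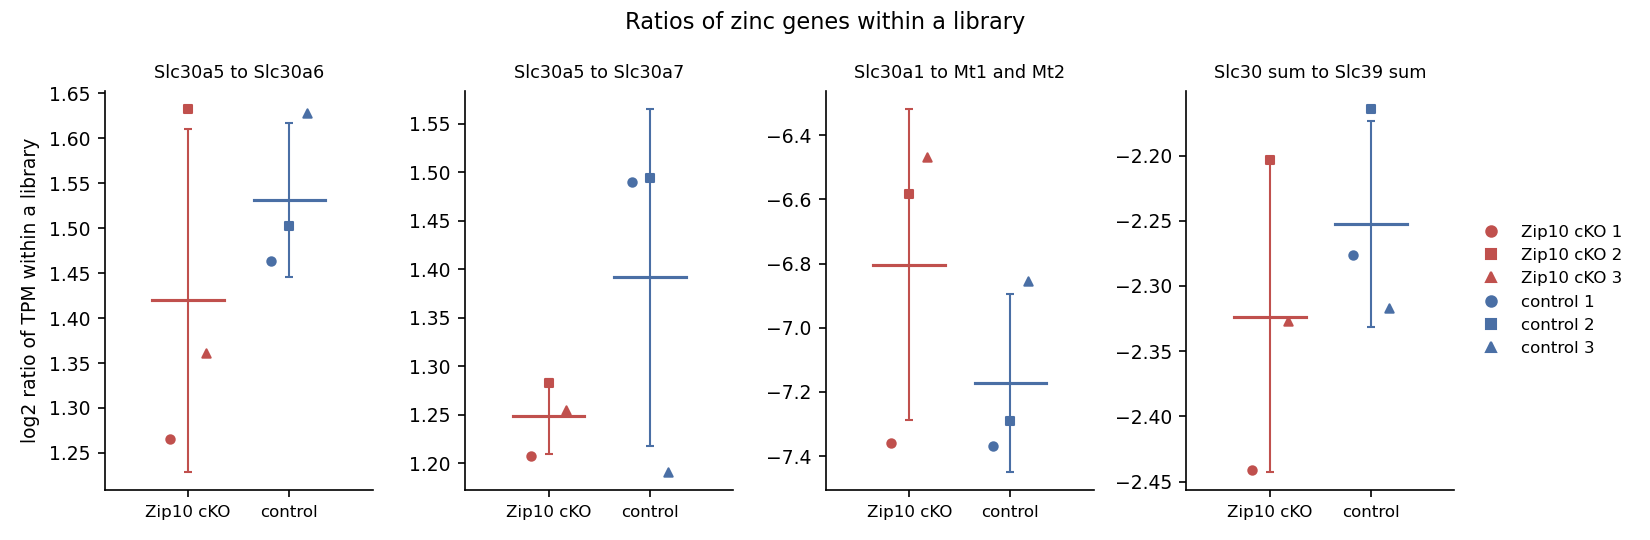
Log2 ratios of TPM within each library for Slc30a5 to Slc30a6, Slc30a5 to Slc30a7, Slc30a1 to the sum of Mt1 and Mt2, and the Slc30 sum to the Slc39 sum. Symbols are libraries (Zip10 cKO left, control right), lines are means and bars are SD (n = 3). The groups overlap in all 4 panels.

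The mix of transcripts behind the members varied as well. RSEM's length column is the mean transcript length of a gene weighted by the estimated abundance of each transcript, so it moves with the mix of isoforms. Slc30a1 stayed at 5244 bases, the length of its longer transcript in GENCODE M21, in all 6 libraries, and Slc30a4 between 5436 and 5453 bases. Slc30a7, whose 4 listed transcripts run from 359 to 9020 bases with 1 protein-coding transcript among them, averaged 5571, 4272 and 4654 bases in Zip10 cKO libraries 1, 2 and 3, against 4338, 5206 and 4110 bases in controls 1, 2 and 3. Its length varied more between libraries of the same group than between the group means of 4832 and 4552 bases. Levels of such genes include transcripts that do not code for protein.

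Slc30a6 averaged 1555, 1810 and 1552 bases in Zip10 cKO libraries 1, 2 and 3, against 1744, 1677 and 1757 bases in controls 1, 2 and 3. Zip10 cKO libraries 1 and 3 were below every control and library 2 above every control. For Slc30a5 the group means were 2611 ± 63.5 bases in Zip10 cKO libraries and 2510 ± 74.2 bases in controls (SD, n = 3 each). The difference did not pass for any of the 7 members with a variable length (exact permutation p from 0.2 to 1, adjusted p from 0.84 to 1). These include Slc30a2, with 8 to 20 counts per library, and Slc30a3, with 0 to 2. Slc30a3 had 0 counts in Zip10 cKO library 1, so its length there is not weighted by abundance.

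**Figure D4:**
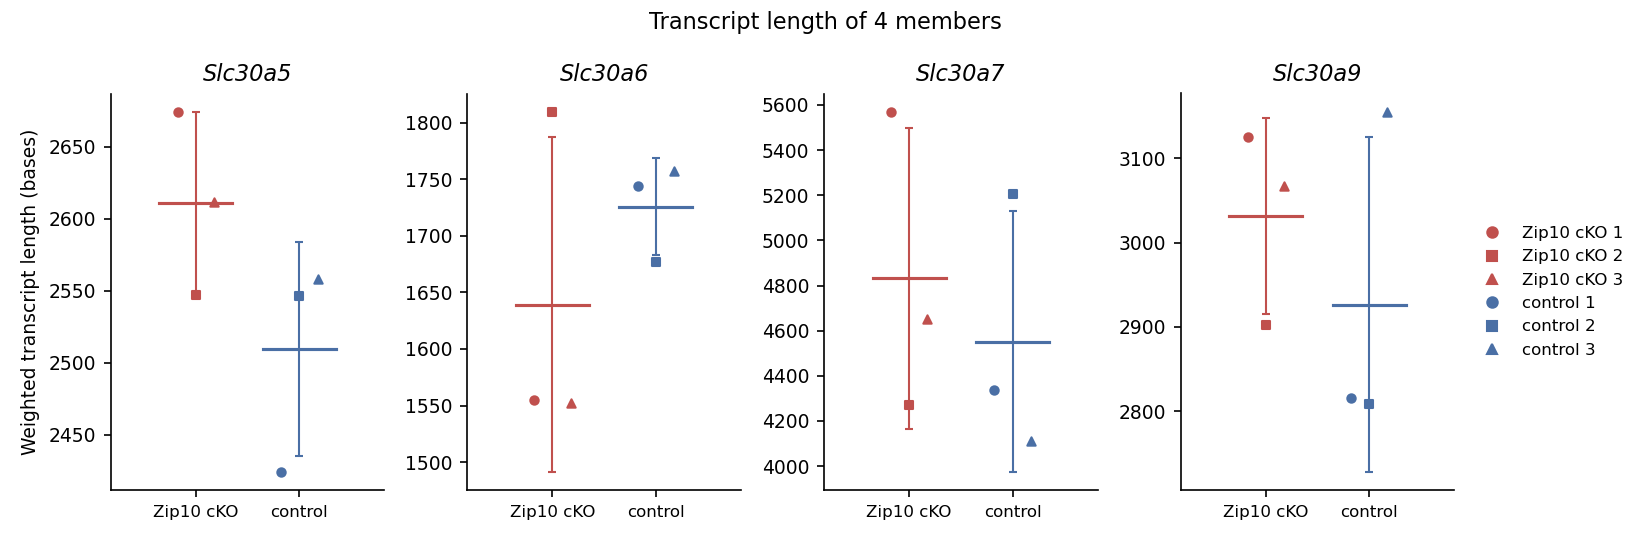
Abundance-weighted mean transcript length in bases of Slc30a5, Slc30a6, Slc30a7 and Slc30a9 per library, Zip10 cKO left and control right. Lines are means and bars are SD (n = 3). The groups overlap for each gene, and Slc30a7 ranges from 4110 to 5571 bases.

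Among the zinc-loaded or zinc-binding proteins of the secretory pathway, 7 of 10 listed genes were tested, 3 had a fold change above and 4 below 1, and 0 passed the test in either direction. Their median log2 fold change was -0.021, but 0.067 without Zip10 cKO library 1, -0.17 without Zip10 cKO library 3 and 0.033 on the scale of log2(TPM + 1). The 3 most abundant were the ectonucleotidase Enpp3 at 79.3 ± 16.6 TPM in Zip10 cKO libraries and 110.0 ± 46.3 TPM in controls, the chaperone Erp44 at 47.4 ± 4.86 TPM in Zip10 cKO libraries and 51.4 ± 3.14 TPM in controls, and Enpp2, which encodes autotaxin, at 23.0 ± 5.59 TPM in Zip10 cKO libraries and 17.21 ± 1.299 TPM in controls (SD, n = 3 each). Tissue-nonspecific alkaline phosphatase, Alpl, was at 7.17, 4.17 and 2.59 TPM in Zip10 cKO libraries 1, 2 and 3, and at 2.48, 3.63 and 3.16 TPM in controls 1, 2 and 3. Its groups overlapped.

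Of the vesicular members, Slc30a4 alone was well expressed. It encodes ZnT4, which fills vesicles and endosomes with zinc and whose loss in the lethal milk mouse leaves milk short of zinc. Its level was 20.67, 18.19 and 19.95 TPM in Zip10 cKO libraries 1, 2 and 3, against 15.37, 17.69 and 16.93 TPM in controls 1, 2 and 3. All 3 Zip10 cKO libraries lay above all 3 controls, as they did for 9.52% of all tested genes (3.37% lay below). On the CPM scale the groups were apart as well, at 79.8, 75.0 and 78.9 CPM in Zip10 cKO libraries 1, 2 and 3 and 67.8, 71.2 and 69.2 CPM in controls 1, 2 and 3, where 6.93% of genes were higher without overlap and 5.78% lower. The log2 fold change was 0.17 ± 0.08, with an interval from 0.98-fold to 1.28-fold (edgeR unadjusted p = 0.0811, adjusted p = 0.747), and the exact permutation p of the TPM was 0.1, the smallest possible (adjusted over 8 members p = 0.8).

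Slc30a4 belongs to the longest of 5 equal groups of genes by length, in which the median log2 fold change of all genes was 0.11, against -0.11 in the shortest. Its log2 fold change was 0.05 ± 0.08 once each library's trend on gene length was removed. Of the smooth muscle markers, 8 of 8 had a fold change above 1, with overlapping summed levels of 6851 to 10900 TPM in Zip10 cKO libraries and 4035 to 7851 TPM in controls. Of the stromal markers, 7 of 9 had a fold change above 1 and 2, Vim and Hand2, below 1, with a summed level of 6180 to 7312 TPM in Zip10 cKO libraries and 3951 to 5568 TPM in controls. No marker of either list was at 0, and none passed the test, where 0% of all genes did. For 6 of 9 stromal markers, Hand2 among them, and 2 of 8 smooth muscle markers, the edgeR unadjusted p was below 0.05. That held for 6.46% of all genes. In CPM, 5 stromal and 2 smooth muscle markers were higher without overlap, as were 6.93% of all genes. Hand2 was lower without overlap, as were 5.78%. The part of both lists in the value of Slc30a4 was not tested.

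Slc30a2 encodes ZnT2, a vesicular transporter best known from lactating mammary epithelium. It had 8, 15 and 20 expected counts in Zip10 cKO libraries 1, 2 and 3, against 11, 12 and 12 in controls 1, 2 and 3, levels of 0.337 ± 0.121 TPM in Zip10 cKO libraries and 0.263 ± 0.065 TPM in controls (SD, n = 3 each). Its interval, from 0.65-fold to 2.42-fold, was the widest of the family (log2 fold change 0.32 ± 0.42, edgeR adjusted p = 0.868). Without Zip10 cKO library 3 the log2 fold change was -0.03, and without Zip10 cKO library 1 it was 0.61.

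Slc30a3 encodes ZnT3 of synaptic vesicles and Slc30a8 encodes ZnT8 of insulin granules. Slc30a3 had 0 to 2 counts per library, 3 in all in each group, and Slc30a8 had 0 in every library. The same limit of 0.132 to 0.153 CPM per library applies to Slc30a8. Of 8 islet and neuronal markers, Ins1, Gcg and Iapp were at 0 in all 6 libraries and the summed level was 0.64 to 0.98 TPM in Zip10 cKO libraries and 0.77 to 2.10 TPM in controls. The AP-3 adaptor, which sorts ZnT3 to synaptic vesicles in neurons, was expressed: of its 7 subunit genes all were tested, 1 had a fold change above and 6 below 1, and 0 passed, with a median log2 fold change of -0.047 from the counts and 0.056 on the scale of log2(TPM + 1). Its 3 most abundant genes were Ap3s1, Ap3d1 and Ap3m1, at 51.6, 52.5 and 40.2 TPM in Zip10 cKO libraries and 50.7, 44.0 and 34.4 TPM in controls (means, n = 3 each). Ap3d1 and Ap3m1 were higher without overlap in TPM, as were 9.52% of all tested genes, but overlapped in CPM, with log2 fold changes of 0.09 ± 0.09 and -0.12 ± 0.13 from the counts.

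Slc30a9 encodes ZnT9, described both as a nuclear receptor coactivator and as the exporter of zinc from mitochondria. It was at 27.88, 28.19 and 29.64 TPM in Zip10 cKO libraries 1, 2 and 3, against 29.18, 32.14 and 25.58 TPM in controls 1, 2 and 3. The Zip10 cKO libraries all lay inside the range of the controls. Its log2 fold change was -0.03 ± 0.09, an interval from 0.85-fold to 1.13-fold (edgeR adjusted p = 0.958). Its CPM had the lowest coefficient of variation over the 6 libraries of the tested members, 4.06%, against 24.8% for Slc30a1. In TPM the coefficient of Slc30a9 was 7.55%, above the 5.88% of Slc30a6 and the 6.02% of Slc30a5.

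**Figure D5:**
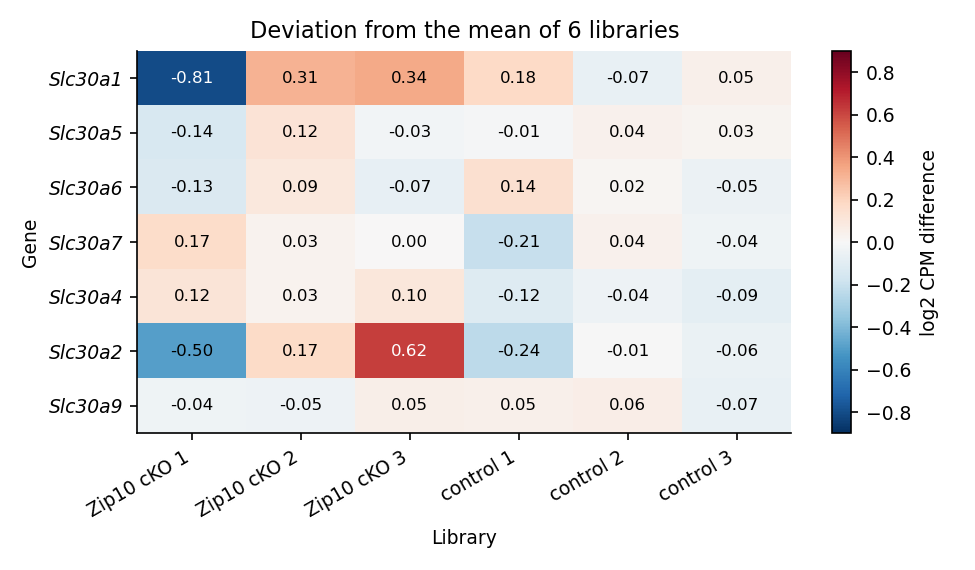
Difference of each library's log2 CPM from the mean of the 6 libraries for the 7 tested members, Zip10 cKO libraries left and controls right. Red is above and blue below the mean. The largest deviations are those of Slc30a1 in Zip10 cKO library 1 (-0.81) and of Slc30a2 in Zip10 cKO libraries 3 (0.62) and 1 (-0.50).

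Correlations between members differed in sign and size, and none was tested, since 6 libraries are few. Pearson correlations of log2 CPM over the 6 libraries, which share depth and tissue make-up, ran from -0.71 for Slc30a6 with Slc30a7 to 0.77 for Slc30a1 with Slc30a2. Slc30a1 and Slc30a2 were both lowest in Zip10 cKO library 1 (-0.81 and -0.50 from their means), and Slc30a2 had 8 to 20 counts per library. The heterodimer partners Slc30a5 and Slc30a6 had 0.64, Slc30a7 and Slc30a4 had 0.77, and Slc30a5 and Slc30a7 had -0.30. Only Slc30a1 and Slc30a2 deviated by more than 0.3 in any library.

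Over 13645 named genes with a mean of at least 1 CPM, those whose log2 CPM followed Slc30a1 most closely over the 6 libraries were Zfp964, a zinc finger gene, Sprn, a prion-like protein gene, and Rasd2, a Ras-like GTPase gene, each with a Pearson correlation of 0.99. Without Zip10 cKO library 1 the correlations were 0.93, 0.93 and 0.95. Zfp964 has close copies in the mouse genome that can share its reads, so its value is uncertain. For Slc30a5 the closest were Adgrl4, an endothelial adhesion receptor gene, with 0.996, and Rab40c and Nebl with 0.98 each. These are the highest of many genes over few libraries.

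The importer Slc39a10 and Slc30a1 were both lowest in Zip10 cKO library 1. Slc39a10 was at 39.5, 72.5 and 79.8 CPM in Zip10 cKO libraries 1, 2 and 3 and at 54.6, 70.4 and 66.2 CPM in controls 1, 2 and 3. Slc30a1 was at 20.01, 43.57 and 44.56 CPM in Zip10 cKO libraries 1, 2 and 3 and at 39.69, 33.55 and 36.27 CPM in controls 1, 2 and 3. Their correlation was 0.87 over 6 libraries and 0.31 without that one.

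Slc30a1 and the metallothioneins share MTF1 as a regulator, and their values were set side by side. Mt2 was at 452, 496 and 536 TPM in Zip10 cKO libraries 1, 2 and 3, against 891, 754 and 560 TPM in controls 1, 2 and 3, and Mt1 at 431, 558 and 499 TPM in Zip10 cKO libraries 1, 2 and 3, against 658, 605 and 506 TPM in controls 1, 2 and 3. Mt2 lay below every control in all 3 Zip10 cKO libraries, as did 3.37% of all tested genes in TPM and 5.78% in CPM. The weakly expressed Mt3 did so too on both scales. It was at 4.41, 3.54 and 4.54 TPM in Zip10 cKO libraries 1, 2 and 3, against 5.72, 4.97 and 4.71 TPM in controls 1, 2 and 3. Mt1 overlapped. Slc30a1 lay below every control in library 1 and above every control in libraries 2 and 3. The sum of Mt1 and Mt2 was 164, 95.8 and 88.5 times Slc30a1 in Zip10 cKO libraries 1, 2 and 3, and 165, 157 and 116 times in controls 1, 2 and 3. Libraries 2 and 3 of the Zip10 cKO group thus had the lowest ratios of the 6 and library 1 one like that of the controls, and the groups overlapped (log2 difference of Slc30a1 to metallothionein 0.37, exact permutation p = 0.3, adjusted p = 0.5). That difference was 0.65 without Zip10 cKO library 1 and 0.20 without Zip10 cKO library 3.

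Of 7 genes for zinc buffering and sensing, 6 were tested, 2 had a fold change above and 4 below 1, and 0 passed the test over all genes. Their median log2 fold change was -0.23, and -0.22 once the libraries' trend on gene length was removed. At an unadjusted p below 0.05, where 6.46% of all genes lay (1.98% lower in Zip10 cKO libraries), there was 1 of the 6, Mt2 (log2 fold change -0.65 ± 0.18, edgeR adjusted p = 0.747). Mtf1 itself was at 10.6 ± 1.59 TPM in Zip10 cKO libraries and 9.05 ± 0.677 TPM in controls (SD, n = 3 each).

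Summed over each family, importers outweighed exporters in RNA. This did not hold gene by gene: the importer Slc39a10 averaged 15.6 TPM over the 6 libraries, below the 48.4 TPM of Slc30a5. The 14 Slc39 genes together had 5.43, 4.60 and 5.02 times the summed TPM of the 10 Slc30 genes in Zip10 cKO libraries 1, 2 and 3, and 4.84, 4.48 and 4.98 times in controls 1, 2 and 3, with overlapping groups (exact permutation p = 0.4, adjusted p = 0.5). The 3 most abundant importers were Slc39a4 at 276 ± 38.2 TPM in Zip10 cKO libraries and 280.2 ± 19.3 TPM in controls, Slc39a7 at 129 ± 17.5 TPM in Zip10 cKO libraries and 108 ± 9.27 TPM in controls, and Slc39a1 at 115 ± 7.14 TPM in Zip10 cKO libraries and 104 ± 6.45 TPM in controls (SD, n = 3 each). Of the 13 tested importers 10 had a fold change above and 3 below 1, with a median log2 fold change of 0.08. None passed the test over all genes, and 1 of the 13, the weakly expressed Slc39a12, had an unadjusted p below 0.05 (higher in Zip10 cKO libraries, as were 4.48% of all genes, with 6.46% in either direction), a share near that of all genes. The lowest value of these 3 importers in any library was 97.5 TPM, for Slc39a7 in control 2, above the highest of any exporter, 52.3 TPM for Slc30a5 in Zip10 cKO library 2.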

How the data were processed

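Expected counts and TPM were deposited by the authors as RSEM gene tables, 1 per library, per the file headers, with gene lengths and effective lengths in bases, another deposited column. Per the submitters' processing notes, the genome was GRCm39 and the tools were RSEM 1.3.3, STAR 2.7.10a, fastp 0.23.2, edgeR 3.38.4 and R 4.2.1, with no parameters. The labels' protocols describe oligo(dT) selection, fragmentation and random priming. Symbols matched 52073 of 56748 IDs. Promoter windows and transcript types came from GRCm38 annotations, matched by symbol or transcript ID.

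Counts were rounded, filtered by filterByExpr (minimum count 10, total 15), scaled by TMM and tested by the quasi-likelihood test of edgeR 4.0.16 (R 4.3.3), adjusted by Benjamini-Hochberg over 16737 genes with a threshold of 0.05. CPM are after TMM, and the SE comes from the F statistic. TPM, sums, ratios and lengths were compared by exact two-sided permutation tests. Alternatives included DESeq2 1.42.0, limma 3.58.1, other scalings and filters, TPM pseudocounts of 1 and 0.1, a loess length trend (span 0.5), a replicate block and leaving out each library. Scripts were tested on simulated counts. Every pair of libraries differed beyond sampling noise (smallest chi-square over its degrees of freedom 16.7). All 10 members are named, with the 3 most abundant genes of each further zinc, manganese or AP-3 list and, for Slc30a1 and the most abundant member, the 3 genes most correlated with it. Alpl, Slc39a12, Vim, Hand2, Mt3, Mcmbp and the antisense gene were named after their values were seen. Members and lists were chosen with earlier results of these data known, and the palindrome's gap after its sequence was seen.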

Additional observations from a re-analysis of the deposited data

How the results depend on the processing

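No Slc30 member and no other zinc gene listed passed the threshold in any alternative fit that tested it, and the smallest adjusted p of a member was 0.621. Of 118 member fold changes under alternatives, 112 kept the sign reported and 6 did not. Over all genes, 0 were called by the quasi-likelihood test as reported, 37 by DESeq2, 30 by edgeR's likelihood ratio test, 15 with no filter on low counts and 0 to 2 with 1 library left out. With limma on TPM, the log2 fold change of Slc30a6 was 0.079 with a pseudocount of 1 and 0.083 with 0.1. With counts per effective length scaled by TMM in place of TPM, the log2 ratio of group means was -0.017 for Slc30a1 and the plasma membrane sum, -0.019 for the family sum and -0.037 for the early secretory sum, against 0.04, 0.05 and 0.03 from TPM. TPM also moved the median log2 fold change of all genes to 0.05 or 0.06.

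With 1 library left out, log2 fold changes ranged from -0.20 to 0.27 for Slc30a1, -0.11 to 0.030 for Slc30a5 and -0.028 to 0.61 for Slc30a2. Log2 ratios of mean TPM ranged from -0.15 to 0.32 for Slc30a1 and the plasma membrane sum, -0.092 to 0.034 for Slc30a5, -0.10 to 0.061 for Slc30a9 and its role sum and -0.012 to 0.067 for the early secretory sum. Log2 differences of the ratios ranged from -0.22 to -0.035 for Slc30a5 to Slc30a6, -0.24 to -0.092 for Slc30a5 to Slc30a7, 0.20 to 0.65 for Slc30a1 to metallothionein and -0.13 to -0.012 for the Slc30 to the Slc39 sum. Median log2 fold changes ranged from -0.17 to 0.067 for the secretory zinc genes, -0.034 to 0.11 for manganese transport and 0.029 to 0.13 for the importers. Length differences ranged from -88.9 to 608 bases for Slc30a7, -251 to 125 bases for Slc30a2 and -7.96 to 0.56 bases for Slc30a4. The causes were not tested. The replicate block in edgeR's quasi-likelihood fit called 0 genes. It gave -0.09 for Slc30a1 (adjusted p = 0.938) and 0.17 for Slc30a4 (adjusted p = 0.656). Correlations of deviations were 0.092, 0.25 and 0.19 for the same-numbered libraries 1, 2 and 3. Between libraries of different number they ran from -0.33 to 0.12. The fit reported did not use the numbers as pairing, and whether they mark pairs was not tested. Depth limits Slc30a2, at 8 to 20 counts, and the 3 members that were not tested.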
